A study of Mus musculus with 2 samples.

Results

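Open chromatin lying 10 to 50 kb upstream of transcription start sites (TSSs) was described in cardiac progenitor cells (CPCs), the precursors of heart muscle. The peaks were chosen by position and width. Each had its midpoint more than 10 kb and at most 50 kb upstream of the assigned TSS and was under 1500 bp wide. Of 26232 distinct ATAC-Seq peaks 2593 met both limits (9.88%, 95% Wilson confidence interval 9.53 to 10.2%), and they are called upstream peaks here. Their summed length was 2.32 Mb, or 7.32% of the length of all peaks. A further 272 peaks lay in the same distance range but were 1500 bp or wider and were left out.

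ATAC-Seq uses the Tn5 transposase to cut and tag DNA that is not wrapped in compact chromatin. The CPCs were derived at day 5 of directed cardiac differentiation from E14 Tg(Nkx2-5-EmGFP) mouse embryonic stem cells, whose strain the labels give as C57BL/6. These cells carry a green fluorescent reporter for Nkx2-5, a homeobox factor of early heart cells. They were treated with BMP4, then with Activin A, VEGF and BMP4, and were last plated with VEGF, bFGF and FGF10. The 2 samples came from separate differentiations and form 1 group without knockdown. The peak list represents both samples together, with no score and no value for a single sample. Depth was therefore unknown and no replicate error could be given. Intervals cover counting error over peaks or genes in this list only. No sort of the cells on the reporter is described for these libraries, so a peak can come from a part of the cells. The identity of the cells was checked only by peaks within 1 kb of the TSS. Of the progenitor genes, Isl1, Nkx2-5, Tbx5 and Mef2c had such a peak, but so did Kdr of endothelial progenitors, Sox2 of pluripotent cells and Pax6 and Sox1 of neural cells. Gata4, Tal1, Etv2, Cdh5 and Nanog had peaks elsewhere but none within 1 kb of the TSS, and Pou5f1, the pluripotency factor Oct4, had none at all. An open TSS does not by itself mark an active gene.

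DNA elements away from promoters include enhancers, which bind transcription factors and raise transcription of a gene over a distance, and insulators, many of which bind CTCF, the protein that anchors chromatin loops. In heart progenitors enhancers are known to bind GATA, T-box, NK homeobox, HAND and LIM-homeodomain factors, often several together. TEAD factors, the DNA-binding partners of the Hippo pathway, and MEIS homeobox factors bind many enhancers in embryonic mesoderm. Promoters of widely expressed genes lie mostly in CpG islands, whereas most enhancers do not.

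The central 300 bp of some upstream peaks of cardiac regulators are printed here as examples of such motifs. They come from the windows with the most different motifs among these genes, and so do not show what is typical of them. Of those shown, 5 held 3 or 4 different motifs, and that of Gata4, with 2, is shown for its base composition. Not every such window of these genes is printed. They are given as plus-strand sequence of mm9, in lower case with motif matches in capitals. A match is a run of letters and not evidence of binding.
Tead1 at -39009 bp (chr7:119863740-119864039): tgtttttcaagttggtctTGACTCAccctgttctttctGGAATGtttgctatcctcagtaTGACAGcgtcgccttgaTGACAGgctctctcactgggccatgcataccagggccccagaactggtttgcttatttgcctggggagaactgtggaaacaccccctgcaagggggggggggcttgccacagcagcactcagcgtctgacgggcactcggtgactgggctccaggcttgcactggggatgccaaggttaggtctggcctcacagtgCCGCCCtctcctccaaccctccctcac
Foxc1 at -12984 bp (chr13:31885382-31885681): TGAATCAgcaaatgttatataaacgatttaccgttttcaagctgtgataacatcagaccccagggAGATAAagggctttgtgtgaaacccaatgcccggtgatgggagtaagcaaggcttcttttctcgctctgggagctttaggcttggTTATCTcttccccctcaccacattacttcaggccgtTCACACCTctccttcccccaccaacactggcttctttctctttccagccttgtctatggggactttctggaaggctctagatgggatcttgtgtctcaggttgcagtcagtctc
Gata5 at -12555 bp (chr2:180081790-180082089): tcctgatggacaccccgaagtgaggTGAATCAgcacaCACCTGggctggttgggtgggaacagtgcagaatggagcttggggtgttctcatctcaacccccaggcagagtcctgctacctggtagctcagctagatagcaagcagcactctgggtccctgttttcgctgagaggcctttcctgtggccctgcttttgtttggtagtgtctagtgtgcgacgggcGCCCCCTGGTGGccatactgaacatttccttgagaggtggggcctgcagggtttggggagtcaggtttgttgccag
Hand1 at -15525 bp (chr11:57661025-57661324): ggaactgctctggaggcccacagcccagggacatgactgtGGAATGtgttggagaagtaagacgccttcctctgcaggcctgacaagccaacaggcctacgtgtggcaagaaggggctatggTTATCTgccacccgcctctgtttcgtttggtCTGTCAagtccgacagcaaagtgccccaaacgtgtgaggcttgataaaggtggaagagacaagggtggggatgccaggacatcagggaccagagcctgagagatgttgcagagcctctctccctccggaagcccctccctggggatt
Hand1 at -34671 bp (chr11:57680171-57680470): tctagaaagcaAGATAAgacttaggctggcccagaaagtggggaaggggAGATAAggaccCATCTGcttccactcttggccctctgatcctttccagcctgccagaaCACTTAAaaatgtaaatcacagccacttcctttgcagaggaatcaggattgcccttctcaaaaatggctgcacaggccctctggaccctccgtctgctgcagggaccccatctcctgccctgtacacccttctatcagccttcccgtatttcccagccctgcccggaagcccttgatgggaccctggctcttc
Gata4 at -10568 bp (chr14:63874527-63874826): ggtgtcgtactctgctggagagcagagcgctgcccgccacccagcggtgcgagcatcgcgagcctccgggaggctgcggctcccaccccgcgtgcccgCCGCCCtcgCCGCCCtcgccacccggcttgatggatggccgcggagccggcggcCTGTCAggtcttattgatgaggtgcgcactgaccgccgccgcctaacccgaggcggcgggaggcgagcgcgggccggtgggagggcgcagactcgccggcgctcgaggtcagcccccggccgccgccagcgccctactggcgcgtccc

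In the Tead1 window at -39009 bp the capitals marked TEAD, MEIS, AP-1 and GC box matches. The Foxc1 window held GATA, T-box and AP-1 matches. The Gata5 window held AP-1 and ZEB E-box matches and the CTCF core. The Hand1 window at -15525 bp held GATA, TEAD and MEIS matches, and that at -34671 bp held GATA, NKX2-5 and HAND E-box matches. The Gata4 window differed from the others in composition, with 76.3% GC and a CpG ratio (observed CpG dinucleotides over those expected from the C and G content) of 0.985. Its capitals marked MEIS and GC box matches.

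CTCF matches had the highest ratio of peak centre to flank among the 17 motifs, and 6 are shown with 40 bases around each. Among peaks with a single match and a gene of known strand, they are those with the match closest to the midpoint, with the 12 bases of the match in capitals.
Gaa (chr11:119110468-119110507): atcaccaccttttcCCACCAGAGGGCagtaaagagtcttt
Vps8 (chr16:21412903-21412942): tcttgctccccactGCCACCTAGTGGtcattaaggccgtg
Cd180 (chr13:103468759-103468798): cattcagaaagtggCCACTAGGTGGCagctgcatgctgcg
Dgcr6 (chr16:18036959-18036998): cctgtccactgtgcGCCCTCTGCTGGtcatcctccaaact
Bend3 (chr10:43172365-43172404): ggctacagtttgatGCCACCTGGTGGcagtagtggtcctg
Bdkrb1 (chr12:106823259-106823298): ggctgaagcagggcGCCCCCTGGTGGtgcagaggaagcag

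At Gaa and Cd180 the match pointed towards the assigned TSS, and at Vps8, Dgcr6, Bend3 and Bdkrb1 it pointed away from it.

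The upstream peaks became fewer with distance from the TSS, and so did the sequence lying at that distance. There were 1118 peaks at 10 to 20 kb, 679 at 20 to 30 kb, 491 at 30 to 40 kb and 305 at 40 to 50 kb. Compared with the 3223 peaks of the same width limit 10 to 50 kb downstream of a TSS, the upstream side held 44.6% (43.3 to 45.9%). That share uses the deposited distances. Sequence was measured by distance to the nearest GENCODE protein coding TSS, which selects a partly different set of peaks. By GENCODE distances the upstream share was 47.6% (46.3 to 48.9%), so the share depended on the annotation. The part of the amount of sequence in the 44.6% was not tested. By GENCODE distances 352.8 Mb lay 10 to 50 kb upstream, with 7.40 peaks per Mb, against 400.6 Mb with 7.18 downstream. The ratio of these densities was 1.03 (0.977 to 1.09), an interval that includes 1. Upstream density was 8.21 peaks per Mb (7.74 to 8.70) at 10 to 20 kb and 5.49 (4.87 to 6.15) at 40 to 50 kb. These intervals do not overlap, so density fell as well as the amount of sequence. Between them it was 7.28 at 20 to 30 kb and 7.40 at 30 to 40 kb. By distance the ratio of upstream to downstream density was 1.09 (1.00 to 1.18) at 10 to 20 kb and 0.971 (0.875 to 1.08) at 20 to 30 kb. It was 1.15 (1.01 to 1.304) at 30 to 40 kb and 0.832 (0.713 to 0.969) at 40 to 50 kb. Both sides thus differed beyond counting error at 30 to 40 kb and at 40 to 50 kb, in opposite directions. The median width was 873.5, 879 and 871 bp in the nearer 3 bins and 837 bp (803 to 866 bp) at 40 to 50 kb.

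**Figure D1:**
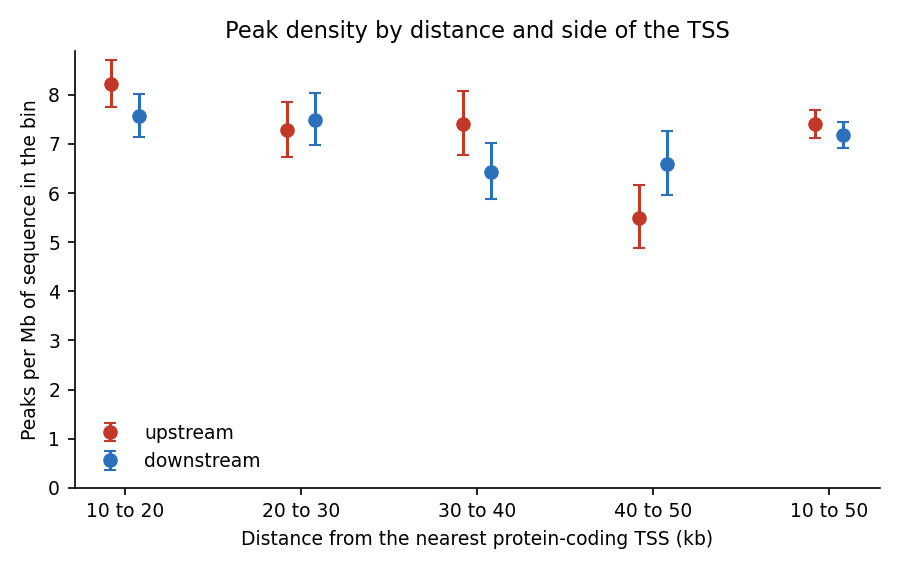
Peaks per Mb of sequence (y axis) by distance in kb from the nearest GENCODE protein coding TSS (x axis; the last position pools 10 to 50 kb), with upstream in red and downstream in blue; bars are exact 95% Poisson intervals over peaks. Upstream and downstream densities overlap over the pooled range, at 7.40 and 7.18 per Mb, and the upstream density is the lower at 40 to 50 kb and the higher at 30 to 40 kb.

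The X chromosome held few upstream peaks. There were 30 of the 2593 on it, or 4.83% (3.41 to 6.81%) of its 621 peaks, while every autosome gave at least 8.13% of its peaks to this class. Per Mb of sequence 10 to 50 kb upstream of a protein coding TSS, the X chromosome held 1.502 peaks and the autosomes together 7.82, a ratio of 0.192 (0.133 to 0.269). The lowest autosome was chromosome 3 with 5.83 and the highest chromosome 17 with 11.3. Downstream the corresponding ratio was 0.271 (0.200 to 0.361), whose interval overlaps that of the upstream ratio. Of all peaks within 1 kb of a TSS and under 1500 bp, 4.37% (3.92 to 4.85%) were on the X chromosome, compared with 1.16% (0.812 to 1.65%) of the upstream peaks. The low share on the X was thus more marked among upstream peaks than among those at TSSs. Among the 3 narrowest upstream peaks 2 were on the X chromosome, at Klhl4 (-10734 bp, 387 bp wide) and Slc6a14 (-34308 bp, 397 bp wide). The list also held 5 peaks on the Y chromosome, none of them upstream peaks. Depth on single chromosomes and the number of X copies in the cells are not in the list, and their part in this result was not tested.

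Width was part of the choice of upstream peaks, and every class compared here was held to the same limit of 1500 bp. The median width was 870 bp (95% interval 860 to 881 bp; quartiles 711 and 1045 bp), compared with 886 bp (876 to 899 bp) downstream, 927 bp (906 to 945 bp) at 1 to 10 kb upstream and 1142 bp (1135 to 1150 bp) within 1 kb of the TSS. Without the limit the upstream median was 903 bp. The intervals of the upstream and downstream medians overlapped, and both were below the interval at the TSS. The widest upstream peaks were at Mga, Ptprs and Chd8, with 1499, 1495 and 1495 bp, and the narrowest, of 360 bp, was at Tspan14. Mga encodes a MAX-binding T-box protein, Ptprs a receptor tyrosine phosphatase and Chd8 a chromatin remodeller. At the edges of the distance range Gm13446 (-10014 bp) and Lrrc55 (-49995 bp) were just inside, while Lefty1 (-9981 bp) and Mmp2 (-50037 bp) were just outside. At the width limit the peak of Mga was just inside and that of Ip6k2, with 1502 bp, just outside.

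**Figure D2:**
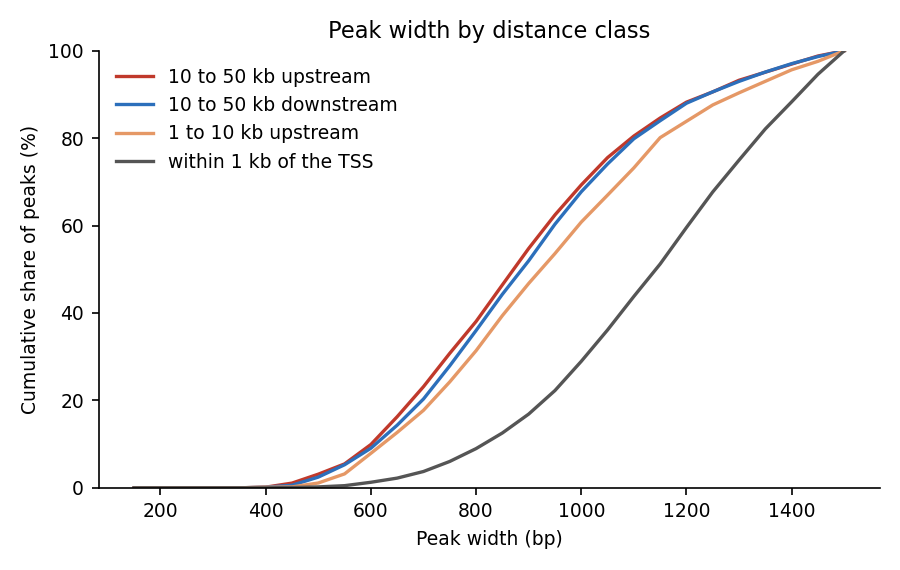
Cumulative share of peaks in % (y axis) at or below each width in bp (x axis), for peaks under 1500 bp in 4 classes of distance from the assigned TSS. The curves 10 to 50 kb upstream and downstream run close together, with medians of 870 and 886 bp, and the curve for peaks within 1 kb of the TSS lies to their right, with a median of 1142 bp.

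In the gene models the upstream peaks lay mostly outside genes. Intergenic sequence held 1747 midpoints (67.4%, 65.5 to 69.2%) and introns 661 (25.5%, 23.9 to 27.2%). A further 88 midpoints (3.39%) were found less than 1 kb away from another protein coding start site, 42 in coding exons, 33 in untranslated regions and 22 in other exons. Downstream peaks were intergenic in 34.1% of cases, a difference of 33.3 percentage points (Newcombe interval 30.8 to 35.7). Peaks 1 to 10 kb upstream were intergenic in 68.1%, a difference of -0.770 points (-3.75 to 2.255), so the share is not particular to this range. A gene's body lies downstream of its TSS by definition, and its part in the contrast with downstream peaks was not tested. Of the 661 intronic upstream peaks 513 (77.6%) lay only in genes other than the assigned gene. The predicted gene Gm20388 on chromosome 8 held 13 upstream peaks, and the introns of Dgkg, Fgfr2 and Zmiz1 held 4 each, which were assigned to microRNA or other genes. Those in Gm20388 were assigned to many genes, among them Crispld2, Jph3, Cdh15 and Rab4a. This gene model thus extends over sequence upstream of other genes, which was counted as intronic. Fgfr2 encodes an FGF receptor, and its 4 were assigned to Chst15, Cpxm2, Plekha1 and Mir7061. The remaining 148 were inside the assigned gene, upstream of an internal TSS. Upstream peaks of microRNA genes numbered 89, and 361 peaks were assigned to noncoding RefSeq accessions.

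The assignment to a TSS depended on the annotation. When each midpoint was measured instead to the nearest GENCODE protein coding TSS, 1856 of the 2593 peaks (71.6%) stayed 10 to 50 kb upstream. Of the others, 239 (9.22%) became downstream peaks of the same distance range, 178 lay beyond 50 kb, 128 were 1 to 10 kb downstream, 104 were 1 to 10 kb upstream and 88 were within 1 kb. Counting start sites of every gene type, 152 upstream peaks (5.86%, 5.02 to 6.83%) lay within 1 kb of a TSS. These were wider, with a median of 963.5 bp against 866 bp for the others, and a larger share was CpG-rich, 36.8% (29.6 to 44.8%) against 7.29% (6.33 to 8.39%).

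In base composition the upstream peaks were unlike promoters. The median CpG ratio of the central 300 bp was 0.244 (0.234 to 0.252), compared with 0.176 (0.172 to 0.181) in windows of the same length 2 kb to either side and 0.796 (0.790 to 0.801) in peaks within 1 kb of a TSS. Their GC content had a median of 54.0% against 46.0% in the flanking windows. Only 234 (9.02%, 7.98 to 10.2%) were CpG-rich, defined as a ratio of at least 0.6 with a GC content of at least 50%, while 77.5% of the peaks at a TSS were. Of these 234, 178 (76.1%) lay more than 1 kb from any annotated TSS. The peaks of Gata4 at -10568 bp and of Dlx2 at -34477 bp, a homeobox gene of the forebrain, were among them, with ratios of 0.985 and 0.918.

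Upstream peaks were assigned to 2165 of the 15351 genes with any peak (14.1%, 13.6 to 14.7%). Of these genes 1802 had a single upstream peak, 307 had 2, 48 had 3, 7 had 4 and 1 had 5. For 436 genes (20.1%, 18.5 to 21.9%) the upstream peaks were the sole peaks in the list. A peak within 1 kb of the TSS was present at 1292 of the genes (59.7%, 57.6 to 61.7%), as it was at 59.4% of the genes with a downstream peak of the same range, a difference of 0.288 points (-2.49 to 3.06). Both an upstream and a downstream peak were found at 420 genes, or 19.4% (17.8 to 21.1%) of those with an upstream peak, while 17.5% of all genes with a peak had a downstream peak.

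The gene with 5 upstream peaks was Rnf220, which encodes an E3 ubiquitin ligase, on chromosome 4. All 5 were in introns of the gene itself and their distances, -14155 to -40217 bp, ran from more than 1 of its start sites. Their widths were 835 to 1075 bp. The genes with 4 were 4932435O22Rik, Calm2, Col18a1, Fam46b, Gm19299, Tbc1d7 and Tead1. Calm2 encodes calmodulin, the calcium sensor, and its 4 peaks (665 to 1372 bp) were intergenic at -13242 to -36021 bp. Those of Col18a1, which encodes the basement membrane collagen XVIII, lay at -17076 to -46047 bp, the nearest of them in an intron of the gene. These distances too ran from more than 1 start site. Tbc1d7, a subunit of the TSC complex that restrains mTOR, had 4 at -11413 to -43751 bp, of which those at -24787 and -43751 bp were inside Gfod1.

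Upstream peaks mostly stood alone. Within 10 kb of another upstream peak lay 468 (18.05%, 16.6 to 19.6%), compared with 17.5% (16.2 to 18.8%) of downstream peaks. They formed 203 pairs, 18 groups of 3 and 2 groups of 4. The longest group spanned 23.4 kb of intergenic sequence on chromosome 11, from 114323962 to 114347339, where the 4 peaks of 4932435O22Rik were 666 to 967 bp wide. The other group of 4 was assigned to the noncoding gene Gm19299 and spanned 17.9 kb on chromosome 9, from 66946602 to 66964517. The nearest protein coding TSS to each of its 4 peaks was that of Tpm1, 50093 to 66826 bp away. Tpm1 encodes tropomyosin, a thin filament protein of muscle, and had 2 upstream peaks of its own, at -28886 and -34699 bp. A gap of 14.4 kb with no peak separated these from the group, and the 6 upstream peaks together covered 39.2 kb. This neighbourhood was singled out after its values were seen.

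Of 24 cardiac regulators with a peak, 9 had at least 1 upstream peak (37.5%, 21.2 to 57.3%), compared with 14.1% of all genes with a peak. These genes had 14 upstream peaks by the deposited distances. By GENCODE distances, which select a partly different set of peaks, the sequence 10 to 50 kb upstream of their protein coding TSSs held 17.1 (9.35 to 28.7) peaks per Mb, against 7.40 (7.12 to 7.69) over all genes. The study named many of these genes from chromatin data of such cells, so the list is not independent of the samples. Of the 14 peaks 7 were intergenic and 7 were in introns, and their widths ran from 715 to 1359 bp with a median of 885.5 bp. Of the 9 genes, Gata4 and Hand1 had no peak within 1 kb of the TSS and the other 7 had.

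Among GATA zinc finger factors, Gata4, Gata5 and Gata6 each had 1 upstream peak at similar distances. That of Gata4 lay at -10568 bp (chr14:63874090-63875264, 1175 bp) in an intron of a GENCODE Gata4 transcript. That of Gata5 lay at -12555 bp (chr2:180081519-180082360, 842 bp) in intergenic sequence and held the CTCF core. That of Gata6 lay at -12402 bp (887 bp, chromosome 18), also in intergenic sequence, with NKX2-5, LIM-homeodomain and MEIS matches. The GC content of the central window was 76.3% at Gata4, 57.3% at Gata5 and 49.3% at Gata6.

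Nkx2-5, the gene whose reporter the cells carry, had 1 upstream peak of 756 bp at -27393 bp (chr17:27005526-27006281), in an intron of 2 predicted genes, with MEIS and ZEB E-box matches. Tbx3, a T-box repressor of the conduction system, had 1 of 1053 bp at -19145 bp (chr5:120101201-120102253), with HAND E-box and GC box matches. Isl1, Tbx5 and Mef2c had peaks within 1 kb of a TSS but no upstream peak in this range.

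Hand1, a bHLH factor of left ventricle and lateral mesoderm, had 2 intergenic upstream peaks, of 715 bp at -15525 bp (chr11:57660818-57661532) and of 1131 bp at -34671 bp (chr11:57679756-57680886). Both held GATA matches. The nearest protein coding TSS in GENCODE was for both that of the predicted gene Gm11003, at 9909 and 29055 bp. Hopx, an atypical homeodomain protein of heart muscle precursors, had 1 of 1359 bp at -15512 bp (chr5:77558982-77560340), with a CpG ratio of 0.557. The nearest protein coding TSS in GENCODE to the Hopx peak was that of Gm15831, at -8288 bp and thus outside the distance range.

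Foxc1, a forkhead factor of the second heart field, had 2 intergenic upstream peaks. That of 724 bp at -12984 bp (chr13:31885170-31885893) held GATA, T-box and AP-1 matches, and that of 1078 bp at -46125 bp (chr13:31851852-31852929) held a TEAD match. Tead1, itself a TEAD factor, had 4, of which 3 held TEAD matches. The positions of 3 of the 4 were chr7:119886990-119887778 (-15515 bp, 789 bp wide), chr7:119799445-119800328 (-22948 bp, 884 bp) and chr7:119863484-119864295 (-39009 bp, 812 bp). The peak at -15515 bp held none of the 17 motifs and was only 1825 bp downstream of another GENCODE start site of Tead1. Over all 14 peaks of cardiac regulators, 5 held a GATA match, 5 a TEAD match and 7 a MEIS match. Over all upstream peaks the shares with these matches were 15.9%, 21.3% and 26.5%. With 14 peaks the counts are too small to set apart from these shares, and no difference was tested.

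In the other lists the shares of genes with an upstream peak had wide intervals. Signalling genes had upstream peaks at 7 of 23 (30.4%, 15.6 to 50.9%). Wnt11, a noncanonical Wnt ligand of the outflow tract, had 2 (-30228 and -36998 bp), both intergenic and with FOX and RUNX matches. Bmp4 (-46028 bp), Fgf3 (-26762 bp) and Ptch1 (-36520 bp), a BMP ligand, an FGF ligand and the Hedgehog receptor, had 1 each. Of 17 cardiac contraction genes with a peak 3 had upstream peaks (17.6%, 6.19 to 41.0%). Ryr2, the calcium release channel, had 2 at -26909 and -30958 bp, Tpm1 had 2, and Myl2, the ventricular myosin light chain, had 1 at -11888 bp. SWI/SNF subunits, which form a chromatin remodelling complex, had upstream peaks at 2 of 21 genes (9.52%, 2.65 to 28.9%), both near the far edge of the range, Arid1b at -48981 bp and Brd7 at -47508 bp.

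Genes of other fates were not without upstream peaks. The highest share of any list was that of the pluripotency genes, with 7 of 14 genes with a peak (50.0%, 26.8 to 73.2%) and 1 upstream peak each. Over all pluripotency genes found in GENCODE, with or without a peak, the share was 31.6%, against 34.6% of cardiac regulators and 7.71% of all protein coding genes. Esrrb (-18805 bp), Nanog (-37952 bp), Sall4 (-24215 bp) and Tcl1 (-41542 bp) were among them. Sall4 had 6 different motifs in its central window, while Esrrb had a CTCF match and a CpG ratio of 0.681. Skeletal muscle genes had upstream peaks at 3 of 10 (30.0%, 10.8 to 60.3%), and none of the 3, Pax7, Lbx1 and Myog, had a peak at the TSS. Both peaks of Pax7, a muscle stem cell factor (-25927 and -44434 bp), held the CTCF core. Endothelial and blood genes had them at 3 of 15 (20.0%, 7.05 to 45.2%), with 2 at Egfl7 (-14578 and -24348 bp) and 1 each at Flt1 and Runx1. Neural genes had them at 4 of 21 (19.0%, 7.67 to 40.0%), namely Dlx2, Hes5 (-14364 bp), Nes (-10296 bp) and Nkx6-1 (-23990 bp). The nearest protein coding TSS in GENCODE to the Nes peak was that of Crabp2, at 8654 bp. Of 7 liver genes with a peak only Ttr, which encodes transthyretin, had 1 (-22183 bp). The lower bound was above the share of all genes for cardiac regulators, signalling genes and pluripotency genes, and the intervals of the other 6 lists included it. Without the width limit skeletal muscle genes were at 50.0% (23.7 to 76.3%), above the 15.2% of all genes, while in the wider peaks alone the interval of signalling genes (13.04%, 4.54 to 32.1%) included the 7.37% of all genes. These shares were not tested against each other. Per Mb of sequence in the range, only the interval of cardiac regulators was above the 7.40 of all genes, while signalling genes (11.5, 5.49 to 21.1) and pluripotency genes (10.6, 3.44 to 24.7) were not distinguished from it.

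**Figure D3:**
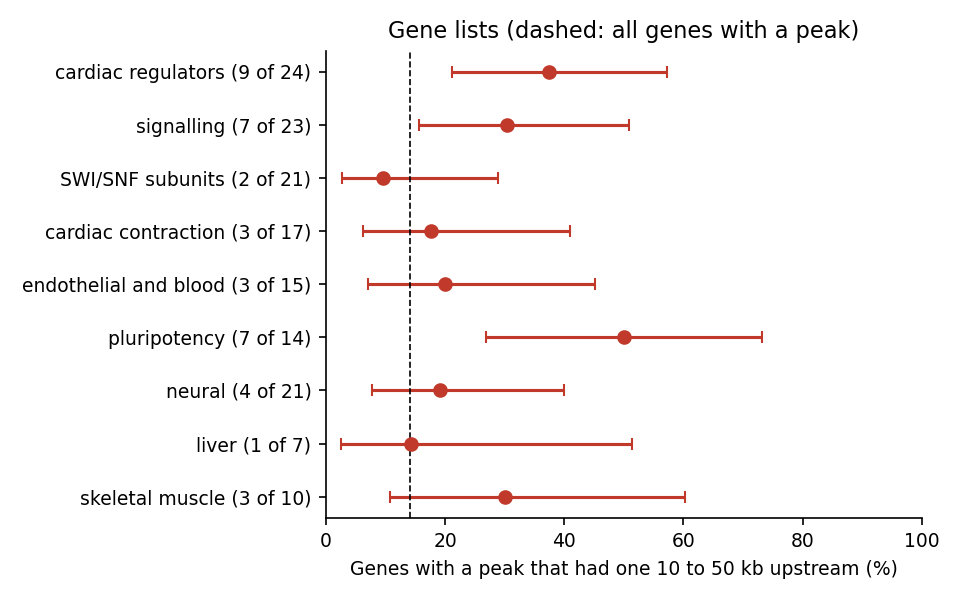
Share in % of the genes with any peak that had at least 1 upstream peak (x axis) in each gene list (y axis, with counts); bars are 95% Wilson intervals over genes and the dashed line is the 14.1% of all genes with a peak. The points of pluripotency genes (50.0%) and cardiac regulators (37.5%) lie farthest to the right, and their intervals overlap those of every other list.

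Motif matches were counted in the central 300 bp of each upstream peak and in windows of 300 bp centred 2 kb to either side, where those were free of peaks. Of 17 motifs a median of 2 different ones was present per peak, and 341 peaks (13.2%) had none. Because the peak centres were richer in GC than their flanks, each motif was also counted with its letters read backwards. This keeps the base composition but not always the number of CpG dinucleotides, and was a control chosen after the data were seen.

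The CTCF core, which is given by name only, occurred in 169 upstream peaks (6.52%, 5.63 to 7.53%) and in 0.195% of flanking windows, a ratio of 33.5. The matches were close to the midpoints. There were 29.3 per 50 bp bin within 150 bp of the midpoint and 1.05 beyond 1000 bp, and the median offset of the nearest match was 62 bp (49 to 67 bp). The share was 5.77% in downstream peaks and 5.96% at 1 to 10 kb upstream, differing from the upstream peaks by 0.747 points (-0.488 to 2.01) and 0.562 points (-1.05 to 2.06), and 0.830% in peaks at a TSS. Peaks with the match were narrower than the others, with a median of 815 bp (771 to 853 bp) against 873.5 bp (864 to 887 bp). The match pointed towards the assigned TSS in 63 peaks and away from it in 80 (towards in 44.1%, 36.2 to 52.2%), so neither direction prevailed beyond counting error. In 1 peak there were matches in both directions, and for 25 the strand of the gene was unknown.

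Of the motifs of enhancer factors, MEIS and TEAD had the largest differences from the flanks in percentage points. This order leaves aside the backwards letters. These fell below the flanks for GATA, FOX and the HAND E-box, and by less for MEF2, NKX2-5, LIM-homeodomain and RUNX. By ratio of centre to flank, ETS (2.52) and the POU octamer (1.82) were above MEIS (1.36) and TEAD (1.35). The MEIS letters CTGTCA occurred in 687 upstream peaks, 26.5% (24.8 to 28.2%) against 19.5% of flanking windows, a difference of 7.02 points (5.03 to 9.06), while the backwards letters differed by 0.201 points (-1.47 to 1.93). The TEAD letters GGAATG occurred in 553, 21.3% (19.8 to 22.9%) against 15.8%, a difference of 5.52 points (3.67 to 7.41), compared with -1.33 points (-2.65 to 0.0528) for the backwards letters. TEAD matches were found in 19.0% (16.8 to 21.4%) of upstream peaks at 10 to 20 kb and in 26.9% (22.2 to 32.1%) at 40 to 50 kb, intervals that do not overlap. Between them the shares were 22.1% at 20 to 30 kb and 22.2% at 30 to 40 kb. The intervals of GATA and CTCF shares overlapped across these bins. Flanks and backwards letters were not counted by bin. AP-1 (TGANTCA) was at 10.0% against 8.22%, FOX (TGTTTAC) at 5.55% against 4.26% and the POU octamer (ATGCAAAT) at 2.58% against 1.42%. For these 3 the interval of the difference was above 0, and the backwards letters differed by -1.14, -3.75 and -0.117 points. The backwards POU octamer, which gains a CpG, was at 0% in the centre and 0.117% in the flanks. It was thus too rare to serve as a control. That of FOX included 0 with GENCODE distances (0.472 points, -0.489 to 1.505) and in peaks wider than the median (0.920, -0.490 to 2.48), and that of AP-1 with flanks at 5 kb (1.17, -0.201 to 2.59) and in the wider peaks (-0.209, -2.05 to 1.76).

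The letters AGATAA, bound by GATA factors, occurred in 412 upstream peaks, 15.9% (14.5 to 17.3%) against 14.4% of flanking windows, a difference of 1.48 points (-0.197 to 3.21) that includes 0. The same letters backwards were at 7.83% in the centre and 14.5% in the flanks, a difference of -6.72 points (-8.10 to -5.27). The HAND E-box (CATCTG) gave a like pattern, with a difference of 0.416 points (-1.56 to 2.43) against -5.79 points (-7.10 to -4.43) backwards. For NKX2-5 (TNAAGTG) the difference was -0.817 points (-2.44 to 0.859). It was -2.62 points (-4.79 to -0.344) in peaks wider than the median and -2.72 points (-4.65 to -0.751) over 500 bp, both below 0. The backwards letters of NKX2-5 differed by -2.60 points (-4.11 to -1.035). For T-box (AGGTGTNA) the difference was 0.662 points (-0.212 to 1.61), against -0.980 points (-1.98 to 0.0886) backwards. Matches to LIM-homeodomain (TAATGG) and MEF2 motifs were fewer in the centre than in the flanks, by -3.08 points (-4.40 to -1.69) and -2.76 points (-3.46 to -2.02), and their backwards letters were too. GC content moved with these values, at 54.0% in the centre and 46.0% in the flanks, and its part in them was not tested.

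The GC box (CCGCCC) occurred in 19.2% (17.8 to 20.8%) of upstream peaks and 4.26% of flanking windows, but its letters read backwards gave 19.3% and 4.34%. Upstream peaks with a GC box were wider, with a median of 949 bp (918 to 983 bp) against 854 bp (841 to 865 bp). ETS (CCGGAAGT) occurred in 14 upstream peaks (0.540%) and in 7.35% of peaks at a TSS. SOX (ACAATGG), RUNX (TGTGGTT) and the ZEB E-box (CAGGTG) had differences whose intervals included 0. For RUNX, at -1.11 points (-2.25 to 0.0940), the interval was below 0 in 5 of 6 other settings of width, distance, window and flank, by up to -2.75 points (-4.17 to -1.28) over 500 bp, and for SOX it was below 0 over 500 bp (-1.61 points, -2.77 to -0.384). T-box and ZEB E-box letters overlap, and in 28 of the 44 peaks with both the matches shared bases. The same held for 22 of 52 peaks with ZEB E-box and CTCF matches.

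**Figure D4:**
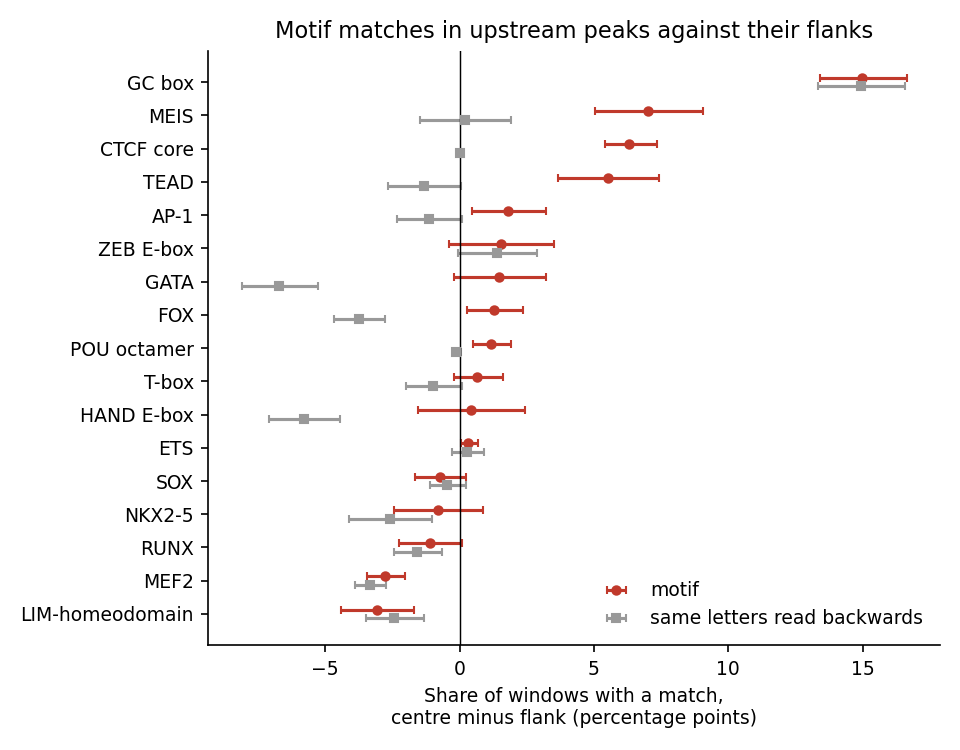
Share of windows with a match in the central 300 bp of upstream peaks minus the share in flanking windows, in percentage points (x axis), for 17 motifs (y axis, red circles) and the same letters read backwards (grey squares); bars are 95% Newcombe intervals over windows. MEIS, CTCF and TEAD lie to the right, with the backwards letters of MEIS and TEAD near 0. The backwards CTCF letters matched no window in the centre or the flanks, so their difference of 0 is not a control. The GC box and its backwards letters coincide, and for GATA, FOX and the HAND E-box the backwards letters lie far to the left.

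**Figure D5:**
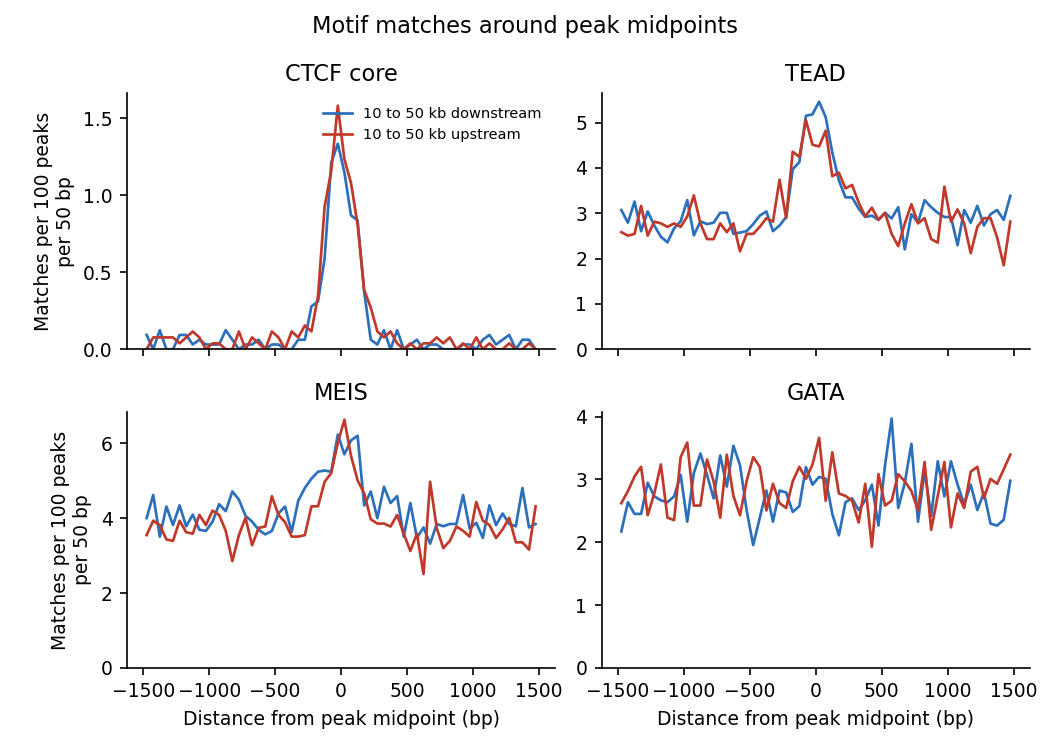
Matches per 100 peaks per 50 bp bin (y axes) by distance in bp from the peak midpoint (x axes) for 4 motifs, in peaks 10 to 50 kb upstream (red) and downstream (blue). CTCF matches are concentrated at the midpoint, TEAD and MEIS matches are raised there above a level that is not 0 farther out, and GATA matches are at a similar level throughout, with 83.0 upstream matches per bin within 150 bp and 74.3 beyond 1000 bp.

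Upstream and downstream peaks were alike in most motifs. For 17 motifs against downstream peaks and against peaks 1 to 10 kb upstream, 34 differences in all, 9 had a 95% interval without 0. Compared with downstream peaks, TEAD was lower in upstream peaks by -2.25 points (-4.40 to -0.0918) and NKX2-5 higher by 1.95 points (0.215 to 3.70). With intervals widened to share the error over all 34 neither excluded 0. The 2 differences that did were against peaks 1 to 10 kb upstream, in which GATA was at 11.5% and thus lower than the 15.9% of upstream peaks (difference 4.39 points, widened interval 0.749 to 7.80), and the GC box was at 25.6% (difference -6.38 points, -10.8 to -2.05). Peaks 1 to 10 kb upstream also had a larger CpG-rich share, 16.3% against 9.02%.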

How the data were processed

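CPCs of 2 separate differentiations, 1 group at day 5, were profiled by ATAC-Seq. Per the study's methods and the submitters' processing notes, the authors mapped reads to mm9 with Bowtie2, filtered with SAMtools, removed duplicates with Picard 1.136, called peaks in each replicate with MACS, dropped blacklisted regions and kept, with bedtools 2.15, peaks overlapping between replicates by at least 1 bp. They deposited 1 list of 26429 lines with interval, signed distance in bp to a TSS, accession and gene symbol, without counts, scores or p-values. A shift of reads at peak calling is described, but no correction for the Tn5 cut position. An interval carries the coordinates of 1 replicate, its width depends on depth and caller, and a region missing from the list is not shown to be closed. Nearest-TSS assignment is described for the ChIP-Seq peaks of the study.

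Lines were reduced to 26232 distinct intervals. Upstream peaks lay 10 to 50 kb upstream by the deposited distance, with a width under 1500 bp. Of them 3 stood on 2 lines and 2219 had a symbol found in GENCODE vM1, whose gene models were used on NCBIM37, the same assembly as mm9. Positions are 1-based. Densities divide peaks by the sequence whose nearest protein coding TSS lay at that distance on that side. Motifs were searched as exact letters on both strands, with N as any base. Shares have Wilson, differences Newcombe, medians order-statistic and density ratios exact conditional intervals, all at 95%. Comparisons are descriptions, since no value per replicate exists. Code was tested on simulated data. Python 3.11.15, numpy 2.4.6, pandas 2.3.3 and scipy 1.17.1 were used.

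The peak class, the 9 gene lists of 20 to 26 genes (202 in all) and the motifs were chosen with earlier results of these data known. Genes were named by rule: every cardiac regulator with an upstream peak, up to 4 genes of each other list with the most upstream peaks (ties by alphabet), the genes with the most upstream peaks over the whole list, up to 10 (8, since 48 tied at 3), the 3 widest and 3 narrowest peaks and the longest group. Alternatives were width limits, annotation, distances, window sizes and denominators. Isl1 knockdown cells, which the series design names, were not analysed here. A marker gene and a peak window that the rules would name are not reported here.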

Additional observations from a re-analysis of the deposited data

How the results depend on the processing

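The 37 results, among them 17 motif differences and 9 list shares, gave 199 combinations with alternatives. In 150 the value stayed within its 95% interval (the number of peaks within 1.5 times), 44 moved and 5 were reversed. Reversed means a change of sign in a motif difference whose main interval had the same sign throughout. Other sign changes were counted as stayed or moved. The HAND E-box, for example, went from 0.416 to -0.409 points without the width limit and was counted as stayed. GATA went from 1.48 to -6.72 points with backwards letters and was counted as moved. The causes were not tested beyond what each setting fixes by construction. No paired analysis was possible because both samples belong to 1 group, and neither replicate could be left out, since the list holds no value per replicate. Depth being unknown, a missing upstream peak is not a measurement.

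Without the width limit the median width was 903 bp, the share within 1 kb of another TSS 7.61%, the share of genes 15.2%, the grouped share 21.0% and the CpG ratio 0.252. With only peaks wider than the median there were 1293 upstream peaks (4.93% of all), the upstream share was 43.3%, the share near another TSS 7.35%, of genes 7.37%, grouped 14.2%, and the CpG ratio 0.262. List shares were then 13.04% for signalling, 6.67% for endothelial and blood, 10.0% for skeletal muscle and 0% for liver genes, and AP-1 turned to -0.209 points. GENCODE distances gave an upstream share of 47.6%, 4.33% near another TSS, 14.7% of genes and 66.6% with a TSS peak. Protein coding models alone gave 71.5% intergenic, 500 bp gave 4.67% near another TSS, 5 kb gave 66.3% with a TSS peak, and grouping at 5 and 25 kb gave 8.25% and 30.6%. Density ratios moved to 0.971, 1.15 and 0.832 in the 3 farther bins, chosen after seeing the data like the backwards letters and the lists per Mb. Backwards letters are a control on other letters and not another processing of the same motif, though they are counted among the combinations. They gave -6.72 points for GATA, -1.33 for TEAD, -3.75 for FOX, -0.117 for the POU octamer and -1.14 for AP-1. All combinations counted as reversed, except that of AP-1 in wider peaks, came from backwards letters. Those from backwards letters do not show that a motif result depends on the processing. Calls that motifs of RUNX, SOX, NKX2-5, FOX and AP-1 gained or lost stand beside their values, and the ETS difference of 0.326 points included 0 without the width limit (0.241), in wider peaks (0.307) and away from any TSS (0.264).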
